A study of Homo sapiens with 12 samples.

Results

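The subject is a set of 10 genes for transcription factors of the human pluripotency network: POU5F1 (OCT4), its copy POU5F1B, NANOG, SOX2, PRDM14, SALL4, ZFP42 (REX1), KLF4, FOXD3 and UTF1. The members were given as a list of names, and their probe sets were found by gene symbol in the platform's annotation, which gave 19 of the 54675 probe sets on the array. Of these, 18 belong to 9 members by a single symbol. POU5F1 has none of its own and is read by 1 probe set that the annotation shares among POU5F1, POU5F1B and the copies POU5F1P3 and POU5F1P4. The RNA came from H9 cells, an established human embryonic stem cell line, at passages 28 to 35, and was read on 12 arrays in 4 groups of 3. All groups, the untreated one included, carried a doxycycline-inducible (Tet-on) construct for GCNF, the orphan nuclear receptor encoded by NR6A1. The groups were cells kept for 6 days in a serum medium (15% serum) with 1 µg/ml doxycycline (Dox; Dox-labelled day 6), cells kept the same way with 1 µM retinoic acid (RA-labelled day 6), undifferentiated cells exposed for 4 days to 1 µg/ml Dox (Dox-treated d0), and untreated undifferentiated cells (d0). The sources used here do not say whether the line is 1 clone, and cells given Dox but lacking the construct were not analysed here.

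POU5F1, NANOG and SOX2 encode the factors at the centre of the pluripotency network. They bind many regulatory regions together, activate their own genes and each other's, and hold back genes of differentiation. PRDM14, a PR-domain zinc finger protein, supports POU5F1 expression in human embryonic stem cells, and SALL4 is a zinc finger partner of POU5F1 and NANOG. ZFP42 and UTF1 are widely used markers of the undifferentiated state, KLF4 is a reprogramming factor that is also active in epithelia, and FOXD3 acts in pluripotent cells and later in the neural crest. In the mouse, GCNF binds a direct repeat of a nuclear receptor hexamer and represses Pou5f1 and Nanog during retinoic acid differentiation.

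Upstream sequence was at hand for 6 members (NANOG, SOX2, ZFP42, KLF4, FOXD3 and UTF1) from RefSeq on GRCh38.p14, and the 250 bases before each start were searched on both strands. The repeat bound by GCNF, AGGTCAAGGTCA, was in none of these 6 windows and in 0.0146% of 27305 windows of the same length over all genes. Its hexamer AGGTCA was in 1 of the 6, that of SOX2, and in 12.1% of all windows. An octamer joined to a SOX site, CATTGTNATGCAAA, stood in 2 of the 27305 windows, and NANOG was 1 of them. The octamer core ATGCAAA, which overlaps that composite, was found in NANOG and SOX2 and in 3.98% of all windows. The windows of these 2 genes, the core factors in the table, are shown with the matches in capitals: the composite in NANOG (chr12:7789152-7789401, plus strand), 120 to 107 bases before the start and read on the minus strand, and in SOX2 (chr3:181711675-181711924, plus strand) the hexamer on the minus strand and the octamer core on the plus strand.
NANOG: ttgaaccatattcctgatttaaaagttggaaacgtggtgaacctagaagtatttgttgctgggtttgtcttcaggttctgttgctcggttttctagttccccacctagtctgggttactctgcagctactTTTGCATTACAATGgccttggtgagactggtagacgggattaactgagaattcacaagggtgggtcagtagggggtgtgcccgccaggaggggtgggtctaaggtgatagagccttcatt
SOX2: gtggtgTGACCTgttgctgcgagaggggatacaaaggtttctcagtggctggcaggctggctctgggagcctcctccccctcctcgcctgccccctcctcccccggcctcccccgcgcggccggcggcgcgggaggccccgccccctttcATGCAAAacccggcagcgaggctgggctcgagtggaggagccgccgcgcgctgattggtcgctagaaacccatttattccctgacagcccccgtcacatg
These matches describe letters only, and factor binding was not measured here.

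The deposited intensities were scaled so that the trimmed mean was 500.1 on every array, and between 23.1% and 26.5% of probe sets per array read under 16. The labels were checked with NR6A1, where 6 of 7 probe sets rose with Dox at d0, the most induced reading 615 ± 40.8 in Dox-treated d0 and 26.8 ± 17.6 in d0 (SD, n = 3 each). At day 6 this probe set read 29.2 ± 13.7 on the Dox-labelled and 336 ± 70.9 on the RA-labelled arrays, and CYP26A1, an enzyme induced by retinoic acid, read 29594 ± 1005 on the Dox-labelled and 271 ± 37.0 on the RA-labelled arrays, so these readings went against the labels. The NR6A1 probe sets were divided at day 6: 3, the brightest among them, rose in Dox-labelled against RA-labelled arrays (0.79 to 0.99 on the log2 scale), 3 fell (-2.99 to -1.21) and 1 did not pass (-0.17). The 3 that fell were the most induced by Dox at d0 (1.79 to 3.96). The 3 that rose were less induced there (0.62 to 0.97), and in Dox-labelled day 6 they stood below untreated d0 (-0.77 to -0.54). Every direction between the day 6 groups below, and the agent named for each group, rests on the labels. CYP26A1 and the 3 falls contradict the labels, and the 3 rises show no signal above untreated d0. The ratio of 3' to 5' ACTB signal, a measure of RNA integrity, was 2.29 to 2.40 in Dox-labelled day 6, 2.41 to 2.92 in RA-labelled day 6, 3.85 to 3.87 in Dox-treated d0 and 3.08 to 3.34 in d0. No 2 of these ranges overlapped, and its part in the results below was not tested. Replicates are labelled biological, with no word on how cultures were kept apart, and a p-value therefore covers the spread of these arrays alone.

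Values are probe set intensities, listed for replicates 1 to 3. Rose and fell are used of probe sets past an adjusted p of 0.05 in limma, with adjustment over all 54675 probe sets, on log2(intensity + 16). A member with several probe sets is represented by the brightest. Shares over all probe sets also take in dim ones and several per gene. In bulk RNA, fewer cells that express a gene and less RNA per cell cannot be told apart.

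The POU5F1 family lost signal in graded steps. The shared POU5F1 probe set read 335, 353 and 324 in Dox-labelled day 6, 917, 848 and 936 in RA-labelled day 6, 7896, 7975 and 8005 in Dox-treated d0, and 13488, 13502 and 15012 in d0. No group overlapped another, and each of the 3 neighbouring steps passed the test. The probe set assigned to POU5F1B, which encodes a close copy of the POU5F1 protein, read 312, 299 and 342 in Dox-labelled day 6, 1397, 1219 and 1357 in RA-labelled day 6, 13122, 13596 and 13316 in Dox-treated d0, and 20984, 18614 and 23537 in d0. Its order was the same and its groups were as clearly apart. Since the copies are near-identical in sequence, POU5F1B signal cannot be told apart from that of POU5F1. Counts of members below still include both, so their calls are not separate.

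By its brighter probe set, NANOG had the steepest gradient among the members (-7.79 on the log2 scale, Dox-labelled day 6 against d0). PRDM14 (-6.64) and the dimmer NANOG probe set (-6.61) averaged under 16 in Dox-labelled day 6, so their sizes depend on the pseudocount. The brighter NANOG probe set read 39.9, 33.4 and 36.9 in Dox-labelled day 6, 639, 594 and 686 in RA-labelled day 6, 5497, 5345 and 5562 in Dox-treated d0, and 11547, 11189 and 12279 in d0. Every step passed, and the mean in Dox-labelled day 6 was 0.314% of that in d0. SOX2 behaved differently in undifferentiated cells. It read 1589, 1791 and 1451 in Dox-labelled day 6, 2038, 2367 and 1913 in RA-labelled day 6, 22360, 20699 and 21799 in Dox-treated d0, and 16301, 17211 and 17423 in d0. The Dox-treated d0 arrays were thus the highest and the d0 arrays next, without overlap, while both day 6 groups lay far below.

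PRDM14, which promotes POU5F1 expression, had its groups in the order of NANOG's. It read 20.2, 7.41 and 14.7 in Dox-labelled day 6, 258, 288.5 and 250.1 in RA-labelled day 6, 1855, 2107 and 2136 in Dox-treated d0, and 3267, 2401 and 3210 in d0. In Dox-labelled day 6 it stood at the level of the arrays' lower quartile, which was 14.2 to 15.5 there. SALL4, like SOX2, was highest in Dox-treated d0. It read 1235, 1465 and 1296 in Dox-labelled day 6, 1267, 996 and 1166 in RA-labelled day 6, 5707, 5786 and 5638 in Dox-treated d0, and 4810, 4582 and 4828 in d0. The day 6 groups overlapped, and both lay below both d0 groups.

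ZFP42, a zinc finger marker of stem cells, read 781, 769.5 and 718 in Dox-labelled day 6, 1835, 1993 and 1885 in RA-labelled day 6, 3951, 4877 and 4064 in Dox-treated d0, and 8523, 6310 and 5546 in d0. It kept the order of POU5F1 with smaller steps. KLF4 broke that order, with 357, 420.5 and 352.5 in Dox-labelled day 6, 170.5, 185 and 166 in RA-labelled day 6, 298, 280.1 and 242 in Dox-treated d0, and 405, 486 and 395 in d0. Its Dox-labelled day 6 arrays overlapped those of d0, and its RA-labelled arrays were the lowest. FOXD3 read 14.1, 0.892 and 4.601 in Dox-labelled day 6, 42.8, 32.5 and 6.11 in RA-labelled day 6, 152, 231 and 199.9 in Dox-treated d0, and 322, 261 and 282 in d0. UTF1 was dim throughout, with 44.9, 5.93 and 29.6 in Dox-labelled day 6, 48.2, 27.5 and 33.4 in RA-labelled day 6, 34.9, 82.2 and 69.1 in Dox-treated d0, and 96.1, 94.7 and 109 in d0. For both genes the day 6 groups overlapped and the d0 arrays were the highest.

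**Figure D1:**
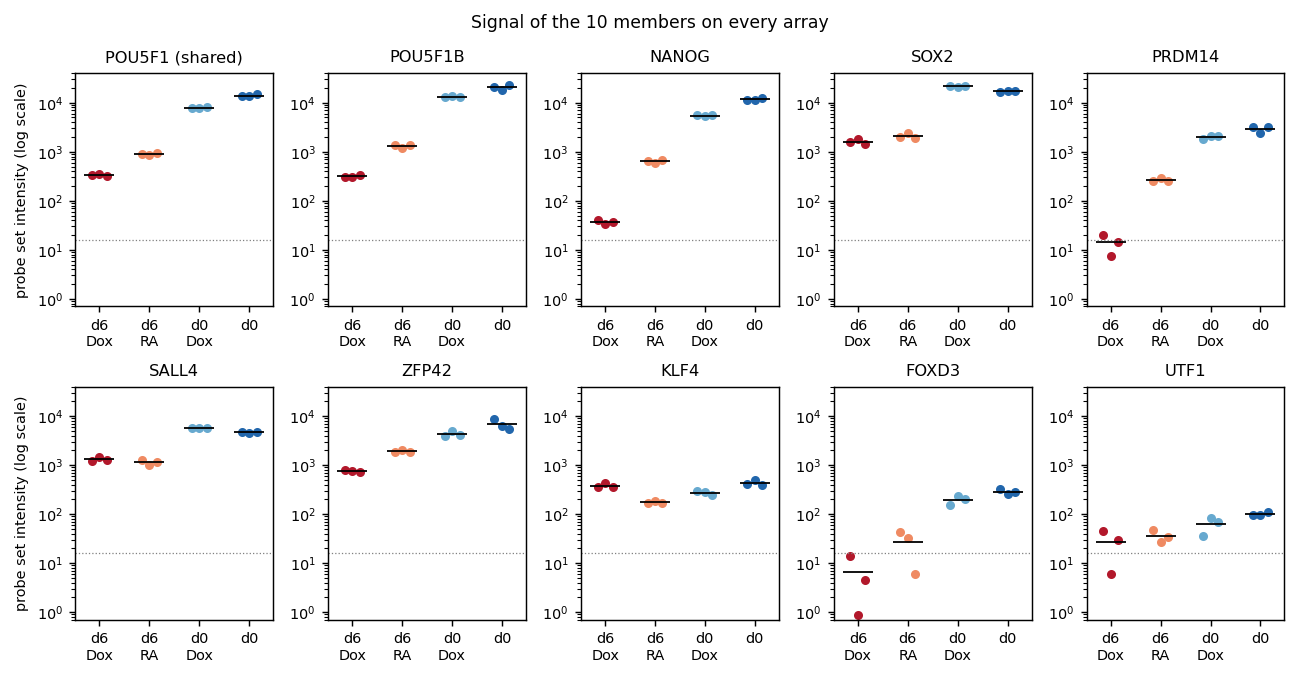
Probe set intensity (log scale) of each member on each array; points are the 3 arrays of a group, horizontal bars their mean and the dotted line an intensity of 16. POU5F1, POU5F1B, NANOG, PRDM14 and ZFP42 step down from right to left, SOX2 and SALL4 are highest in Dox-treated d0, and KLF4 is lowest in RA-labelled day 6.

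With Dox at d0, the comparison that asks what GCNF induction changes in undifferentiated cells, the members divided. Over the 10 members, 0 rose, 5 fell and 5 did not pass by limma, where 5.81% of all probe sets were called, 3.31% higher and 2.5% lower. At an unadjusted p under 0.05 the counts were 2 higher and 6 lower. NANOG fell most, to 46.9 ± 0.953% of the d0 mean (log2 fold change -1.09 ± 0.09 SE, adjusted p = 9.61e-05). The shared POU5F1 probe set fell to 56.8 ± 0.403% (-0.81 ± 0.08, adjusted p = 3.90e-04) and POU5F1B to 63.4 ± 1.13% (-0.65 ± 0.11, adjusted p = 0.006). ZFP42 fell to 63.3 ± 7.44% (-0.64 ± 0.15, adjusted p = 0.0353) and KLF4 to 63.8 ± 6.72% (-0.62 ± 0.12, adjusted p = 0.014).

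SOX2 and SALL4 stood on the other side of d0 without passing. SOX2 was at 127 ± 4.98% of the d0 mean with Dox (0.35 ± 0.11, adjusted p = 0.1) and SALL4 at 120.5 ± 1.56% (0.27 ± 0.10, adjusted p = 0.197). The arrays did not overlap for either, nor did those of the other 8 members, all lower with Dox, where 24.7% of all probe sets showed no overlap, 13.1% higher and 11.6% lower with Dox. PRDM14, at 68.7 ± 5.24%, did not pass (-0.53 ± 0.17, adjusted p = 0.117), though it did in 3 alternative settings (adjusted p = 0.0202 to 0.0427), nor did FOXD3 (-0.55 ± 0.34, adjusted p = 0.448) or UTF1 (-0.62 ± 0.36, adjusted p = 0.403). SOX2 passed in 4 alternative settings (adjusted p = 0.00858 to 0.0467). ZFP42 missed in 13, at adjusted p from 0.0508 to 0.169. Without replicate 3 of Dox-treated d0 only 3 members fell, and with the 6 arrays of this comparison alone 2 fell, NANOG and the shared POU5F1 probe set.

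The split between NANOG and SOX2 was also read within each array, as the log2 difference of the 2 signals relative to its d0 mean. That difference was -1.48, -1.41 and -1.43 in Dox-treated d0 and 0.04, -0.08 and 0.04 in d0. The same difference for the shared POU5F1 probe set and SOX2 was -1.22, -1.10 and -1.16 in Dox-treated d0 and 0.01, -0.07 and 0.06 in d0. Neither overlapped, and the exact two-sided permutation p was 0.1 for each of 4 such comparisons, before adjustment, which is the smallest that 3 against 3 arrays allow. The other 2 comparisons set Dox-labelled against RA-labelled day 6, with differences of -3.25 for NANOG and -0.99 for the shared POU5F1 probe set, each relative to SOX2. Array scaling nearly cancels in these differences where both signals lie far above the pseudocount of 16. It cancels less for NANOG in Dox-labelled day 6, where the mean was 36.7. The part of scaling in these differences was not tested. The differences restate the changes of the same probe sets on the same arrays, with those changes known, and add no separate evidence.

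**Figure D2:**
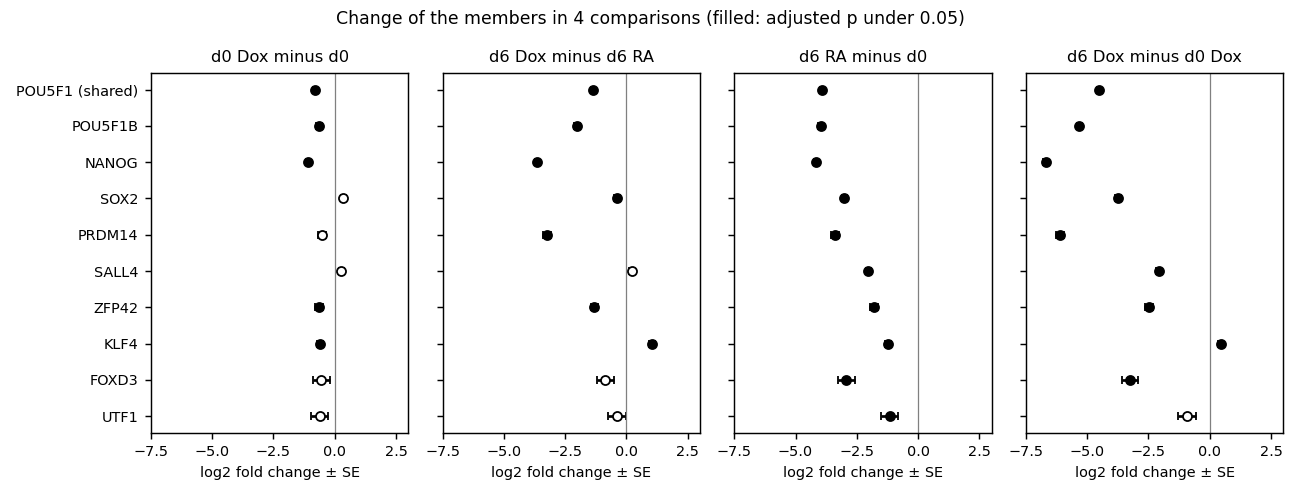
Log2 fold change ± SE of the members in 4 comparisons, each panel titled as the first group minus the second; filled points passed an adjusted p of 0.05. NANOG and PRDM14 lie farthest left between the day 6 groups (-3.64 and -3.25), KLF4 lies right of 0 there (1.05), and all 10 points lie left of 0 for RA-labelled day 6 against d0.

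The contrast of the day 6 groups, Dox-labelled over RA-labelled, asks by its labels how GCNF induction compares with retinoic acid in differentiating cells. NANOG read at most 39.9 on the Dox-labelled arrays and at least 594 on the RA-labelled ones, and PRDM14 at most 20.2 and at least 250.1 on the same arrays. Over the 10 members, 1 rose, 6 fell and 3 did not pass, where 15.5% of all probe sets were called, 7.69% higher and 7.8% lower. NANOG averaged 36.7 ± 3.28 in Dox-labelled and 640 ± 46.0 in RA-labelled day 6. On the scale of intensity + 16 NANOG was 12.4-fold lower (-3.64 ± 0.09, adjusted p = 1.41e-08), which is less than the ratio of these means. PRDM14 averaged 14.1 ± 6.44 in Dox-labelled and 266 ± 20.2 in RA-labelled day 6 (-3.25 ± 0.17, adjusted p = 1.70e-06), a size that depends on the pseudocount since the lower mean is under 16.

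The other falls were smaller. POU5F1B was 4.02-fold lower in the Dox-labelled arrays (-2.01 ± 0.11, adjusted p = 1.64e-06), the shared POU5F1 probe set 2.59-fold lower (-1.38 ± 0.08, adjusted p = 3.88e-06) and ZFP42 2.49-fold lower (-1.31 ± 0.15, adjusted p = 2.69e-04). SOX2 was 1.30-fold lower, close to the threshold (-0.38 ± 0.11, adjusted p = 0.0383), and missed it after median centring, in the 6 arrays alone, with the replicate number as a block and without any of 8 arrays in turn (adjusted p up to 0.131). KLF4 was the rise, with 377 ± 38.1 in Dox-labelled and 174 ± 9.73 in RA-labelled arrays (2.06-fold; 1.05 ± 0.12, adjusted p = 2.48e-04). SALL4 (0.22 ± 0.10, adjusted p = 0.21), FOXD3 (-0.86 ± 0.34, adjusted p = 0.13) and UTF1 (-0.39 ± 0.36, adjusted p = 0.551) did not pass. FOXD3 passed without replicate 3 of the RA-labelled arrays (-1.29, adjusted p = 0.0109), which read 6.11 where the other RA-labelled arrays read 42.8 and 32.5.

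By its labels, RA-labelled day 6 against d0 compares serum medium with retinoic acid against the stem cell state. Medium, time and agent thus differ at once. All 10 members fell, where 38.1% of all probe sets were called, 17.7% higher and 20.4% lower. NANOG fell to 5.48 ± 0.395% of the d0 mean (-4.16 ± 0.09, adjusted p = 2.63e-09), POU5F1B to 6.29 ± 0.445% (-3.97 ± 0.11), the shared POU5F1 probe set to 6.43 ± 0.331% (-3.93 ± 0.08) and PRDM14 to 8.98 ± 0.683% (-3.39 ± 0.17). SOX2 fell to 12.4 ± 1.38% (-3.01 ± 0.11) and FOXD3 to 9.40 ± 6.55% (-2.93 ± 0.34). The losses of SALL4 (24.1 ± 2.88% left), ZFP42 (28.0 ± 1.19%), UTF1 (36.4 ± 10.7%) and KLF4 (40.5 ± 2.27%) were smaller. UTF1 was the weakest call (-1.16 ± 0.36, adjusted p = 0.0253) and missed the threshold without any of 5 single arrays and with a pseudocount of 1. The other 9 had adjusted p of at most 5.57e-05.

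By its labels, Dox-labelled day 6 against Dox-treated d0 has Dox on both sides, for 6 and 4 days, and differs in medium. The NR6A1 probe set most induced at d0 read 29.2 in Dox-labelled day 6 and 615 in Dox-treated d0. Over the 10 members, 1 rose, 8 fell and 1 did not pass, where 34.9% of all probe sets were called, 14.9% higher and 19.9% lower. The higher calls over all probe sets were 42.8% of those called, and 55.5% after each array was centred on its median, which moved the median of all probe sets by 0.14 on the log2 scale. The members' falls were far larger than that shift. NANOG fell by 6.70 on the log2 scale (adjusted p = 2.27e-10), and the changes were -6.11 for PRDM14, -5.32 for POU5F1B and -4.50 for the shared POU5F1 probe set. They were -3.74 for SOX2, -3.25 for FOXD3, -2.48 for ZFP42 and -2.09 for SALL4. KLF4 rose (0.44 ± 0.12, adjusted p = 0.0146), a call lost without replicate 3 of Dox-treated d0 (adjusted p = 0.0585) or replicate 2 of Dox-labelled day 6 (adjusted p = 0.0593), and UTF1 did not pass (-0.93 ± 0.36, adjusted p = 0.0683) but did in 4 alternatives (adjusted p = 0.0223 to 0.0466). Against untreated d0 the Dox-labelled arrays had fallen in 9 members (37.5% of all probe sets were called, 16.6% higher and 20.8% lower), and KLF4 stood at 87.8 ± 8.88% of d0 without passing (-0.18 ± 0.12, adjusted p = 0.288).

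**Figure D3:**
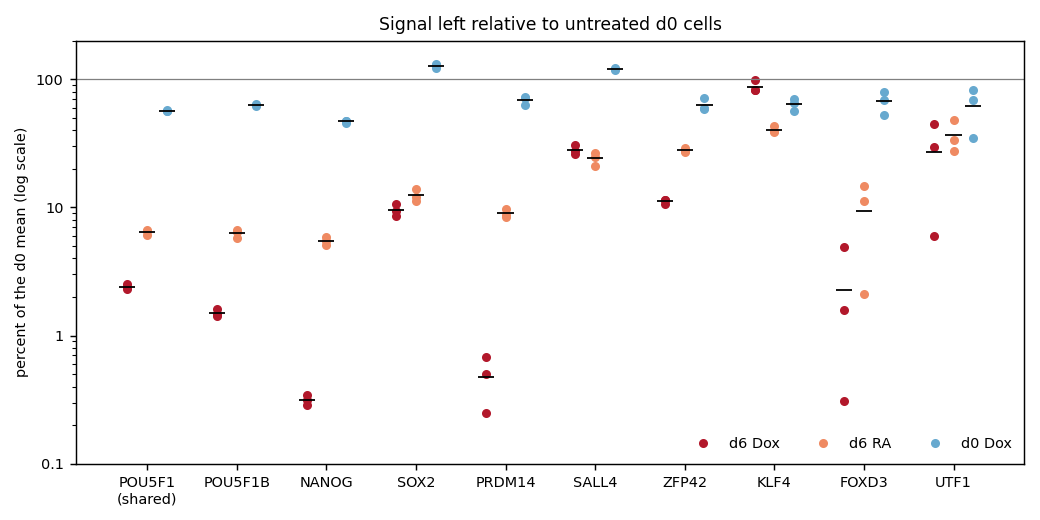
Signal of each member as a percent of its d0 mean (log scale); points are arrays, short bars group means and the grey line 100%. In Dox-labelled day 6 the members spread from NANOG (0.314%) and PRDM14 (0.477%) to KLF4 (87.8%), and in Dox-treated d0 they spread from NANOG (46.9%) to SOX2 (127%).

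Whether the change from d0 to day 6 differed between the Dox arm (Dox-labelled day 6 minus Dox-treated d0) and the RA arm (RA-labelled day 6 minus d0) was tested as an interaction. It was called for 6 of the 10 members, 5 of them with a larger fall in the Dox arm and KLF4 the other way, where 13.4% of all probe sets were called, 6.38% higher and 7% lower. The log2 change in the Dox arm minus that in the RA arm was -2.72 for PRDM14 and -2.55 for NANOG. It was -1.36 for POU5F1B, -0.73 for SOX2 and -0.56 for the shared POU5F1 probe set. KLF4 differed by 1.66 ± 0.17, having risen in the Dox arm and fallen in the RA arm. SALL4, at -2.09 in the Dox arm and -2.04 in the RA arm, gave a difference of -0.05 ± 0.15 (adjusted p = 0.889). These contrasts rest on the same 12 arrays and on the day 6 labels. With the day 6 labels exchanged the arms would be RA-labelled day 6 against Dox-treated d0 and Dox-labelled day 6 against d0, whose difference was not tested. In RA-labelled day 6 against Dox-treated d0, 0 members rose, 9 fell and UTF1 did not pass (0 higher at an unadjusted p under 0.05), where 35.9% of all probe sets were called, 16.1% higher and 19.7% lower. NANOG changed by -3.07 in that contrast and by -7.79 in Dox-labelled day 6 against d0. PRDM14 changed by -2.86 and -6.64 in the same contrasts, and the shared POU5F1 probe set by -3.12 and -5.31. SOX2 gave nearly equal changes, -3.35 and -3.39. KLF4 fell in RA-labelled day 6 against Dox-treated d0 (-0.61 ± 0.12, adjusted p = 0.00224), so its rise is not present in either contrast with exchanged labels.

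Probe sets of one gene were compared where there were several. At d0 both NANOG probe sets fell with Dox, the dimmer one to 34.5 ± 2.93% (-1.51 ± 0.13), and the probe sets assigned to POU5F1P3 (-0.97) and POU5F1P4 (-1.21) fell too, with the same limit on telling copies apart. None of the 4 SOX2 probe sets passed at d0, at 0.07 to 0.47. Between the day 6 groups only the brightest SOX2 probe set passed, and the others gave -0.20, 0.09 and -0.39 (adjusted p = 0.433, 0.915 and 0.645). The SOX2 interaction likewise passed for the brightest alone (adjusted p = 0.0693, 0.988 and 0.453 for the others). The 3 ZFP42 probe sets lay between -0.64 and -0.42, of which only the brightest passed. At day 6 the dimmer NANOG probe set gave a smaller difference than the brighter (-2.04 against -3.64), with a mean of 3.31 in the Dox-labelled arrays, under the pseudocount. Its interaction did not pass (-0.53, adjusted p = 0.104), while that of the middle ZFP42 probe set did (-0.74, adjusted p = 0.0176) where the brightest missed (-0.67, adjusted p = 0.0669). The brightest passed in 5 alternative settings (adjusted p = 0.00874 to 0.0479), in which ZFP42 joins the members with a larger fall in the Dox arm. The dim second KLF4 probe set was not called in any comparison (0.59 between the day 6 groups), so KLF4 rests on 1 probe set. FOXD3 also rests on 1, since its other 2, both dim, were not called in any comparison (for RA-labelled day 6 against d0, adjusted p = 0.0988 and 0.258). PRDM14, SALL4, POU5F1B and UTF1 were read by 1 probe set each.

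**Figure D4:**
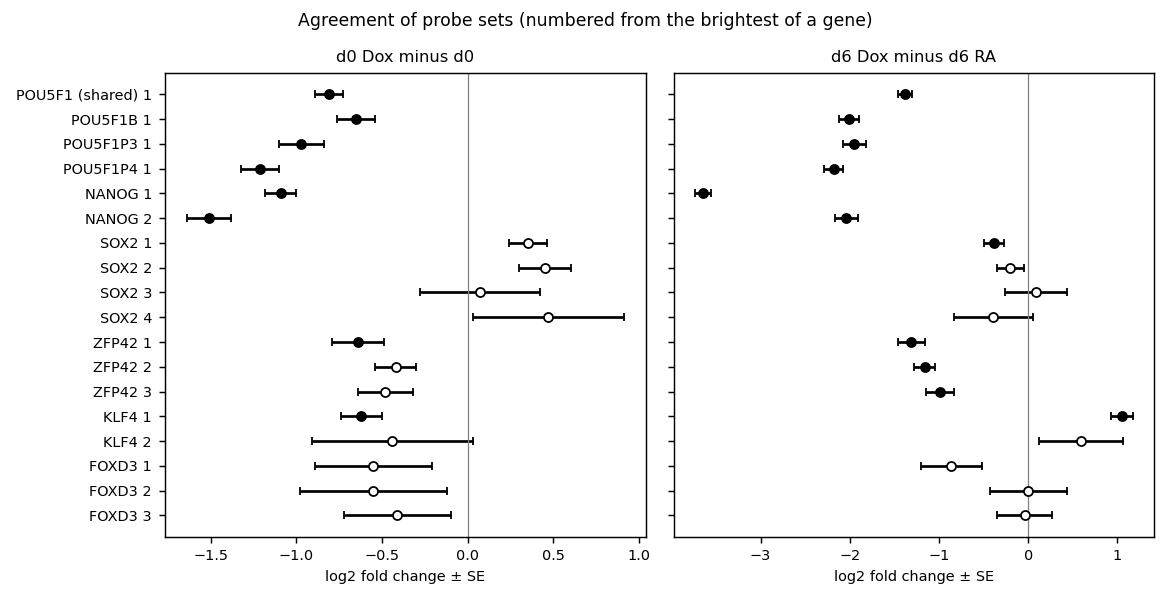
Log2 fold change ± SE of every probe set of members with several, and of the POU5F1 family, for Dox-treated d0 minus d0 (left) and Dox-labelled minus RA-labelled day 6 (right); probe sets are numbered from the brightest of a gene and filled points passed. The POU5F1 family and NANOG lie left of 0 in both panels, and the 4 SOX2 probe sets lie right of 0 on the left.

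Genes whose 4 group means moved most like a core factor were ranked by the root mean square distance of their log2 means, each centred on its own mean over the groups, among 10657 probe sets whose highest group mean reached 8 on the log2 scale. Nearest to the shared POU5F1 probe set was CER1, a secreted antagonist of Nodal and BMP (distance 0.19), followed by GLB1L3 (0.21), the hyaluronan synthase HAS3 (0.22), POU5F1P3 (0.25) and B3GALT5 (0.30). NANOG had no close neighbour, and the nearest was PRDM14 (0.42), followed by POU5F1P4 (0.63), POU5F1B (0.71), MIR302B (0.74) and POU5F1P3 (0.76). Nearest to SOX2 were the noncoding RNA LINC01896 (0.07), the receptor ADGRG2 (0.08), the tryptophan-degrading enzyme IDO1 (0.10), GPRC5B (0.18) and the receptor tyrosine kinase RET (0.20). IDO1, for example, stood at 7.75% of its d0 mean in Dox-labelled day 6, 8.77% in RA-labelled day 6 and 110% in Dox-treated d0. These distances are descriptions over 4 groups of the same arrays.

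Other genes of the network were taken from lists, each gene read by its brightest probe set. Their counts stand beside the share called over all probe sets, which was 5.81% with Dox at d0, 15.5% between the day 6 groups, 38.1% in RA-labelled day 6 against d0 and 34.9% in Dox-labelled day 6 against Dox-treated d0. With 1 probe set per gene (19776 tested), 1532 rose and 1021 fell with Dox at d0, and 2713 and 2408 between the day 6 groups. The numbers were 5007 and 4987 in RA-labelled day 6 against d0, and 4392 and 4729 in Dox-labelled day 6 against Dox-treated d0. With Dox at d0, 27 measured markers of undifferentiated human stem cells gave 1 rise, 9 falls and 17 not passing, with a list median of -0.29 against 0.01 for all probe sets. NODAL, a ligand that sustains pluripotency, fell most (-2.87 ± 0.26), then GDF3 (-1.34 ± 0.23), and the rise was NR6A1, the induced gene itself. At day 6 the same list gave 8 rises, 5 falls and 14 not passing for Dox-labelled against RA-labelled arrays (median -0.04 against -0.02 for all probe sets). MYCN (2.45) and the adhesion gene CDH1 (1.98) were the largest rises, and LEFTY1 (-1.14) and JADE1 (-1.03) the largest falls. Against d0, 0 rose and 25 fell in RA-labelled day 6 (0 higher at an unadjusted p under 0.05; median -2.96), led by the Nodal antagonist LEFTY1 (-6.19) and NODAL (-5.79). In Dox-labelled day 6 against Dox-treated d0, 0 rose and 25 fell (0 higher at an unadjusted p under 0.05; median -1.94), led by LEFTY1 (-6.51) and the DNA methyltransferase DNMT3B (-3.69).

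Of 10 measured naive-state factors, 1 rose and 2 fell with Dox at d0 (median -0.25; 5.81% of all probe sets called), GBX2 (1.87) against DPPA5 (-1.23) and DPPA2 (-1.06). Between the day 6 groups 2 rose and 1 fell, with NR5A2, a receptor that binds the same kind of hexamer as GCNF, at 5.27 and TBX3 at 2.24, against DPPA2 (-0.43). From d0, 3 rose and 4 fell in RA-labelled day 6 (GBX2 1.65, TBX3 1.21, NR5A2 -3.19 and DPPA5 -2.47), and 4 rose and 3 fell in Dox-labelled day 6 against Dox-treated d0 (TBX3 3.07, NR5A2 2.47, DPPA2 -1.46 and DPPA5 -1.40). GBX2 averaged 6.99 in d0, and DPPA5 averaged 1.29 in Dox-labelled and 3.3 in RA-labelled day 6. These means are under 16, so the sizes of changes that use them depend on the pseudocount. Of 12 measured primed-state factors, 4 rose and 1 fell with Dox at d0 (median 0.04), SOX11 (1.49) and OTX2 (0.82) against THY1 (-0.80). OTX2, a partner of POU5F1 in primed cells, therefore rose where POU5F1 signal fell. In each change from d0 to day 6, 9 of the 12 fell and 1 rose, the rise being ETV5 (1.87 in the RA arm and 1.89 in the Dox arm). ZIC2 fell by 3.85 in RA-labelled day 6 against d0 and by 5.48 in Dox-labelled day 6 against Dox-treated d0. The largest fall in the RA arm was SFRP2 (-4.38), and OTX2 fell by 5.47 in the Dox arm. Between the day 6 groups 3 rose and 4 fell, with SOX11 (0.85) and ZIC5 (0.82) against OTX2 (-1.92) and ZIC2 (-1.54). ZIC5 averaged 1.97 in RA-labelled day 6, with the same limit on its size.

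Proteins reported to bind POU5F1 or NANOG formed another list. With Dox at d0, by limma, 1 of the 28 measured rose, 0 fell and 27 were not called (2 lower at an unadjusted p under 0.05, list median 0.04). Over all probe sets 5.81% were called. The rise was SALL1 (1.40), a relative of SALL4. From d0 to RA-labelled day 6, 4 rose and 18 fell (median -0.51), with SMAD3 (2.04) and STAT3 (0.66) against ZSCAN10 (-3.79) and THAP11 (-1.68). In the Dox arm 3 rose and 18 fell (median -0.48), with SMAD3 (2.60) and SMAD2 (0.45) against ZSCAN10 (-3.68) and RIF1 (-1.19). Between the day 6 groups 4 rose and 3 fell, with THAP11 (1.13) and SALL1 (1.02) against CBFA2T2 (-0.55) and EP300 (-0.43). Relatives of the members in their gene families were the last list. Of 30 measured, 1 rose and 1 fell with Dox at d0 (SALL1 at 1.40 and KLF6 at -0.38), where 5.81% of all probe sets were called. Between the day 6 groups 3 rose and 3 fell, where 15.5% of all probe sets were called, with SALL1 (1.02) and KLF3 (0.42) against SALL3 (-0.82) and SOX3 (-0.68). In RA-labelled day 6 against d0, 11 rose and 5 fell, with FOXD1 (2.15) and KLF6 (2.08) against SALL3 (-2.14) and POU6F1 (-0.98). In Dox-labelled day 6 against Dox-treated d0, 12 rose and 5 fell, with FOXD1 (2.19) and KLF5 (1.99) against SALL3 (-3.16) and SOX3 (-1.21). SALL1, SALL2, SOX3, KLF2, KLF5, DPPA2, NR0B1 and ZSCAN10 stand in more than 1 of these lists.

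**Figure D5:**
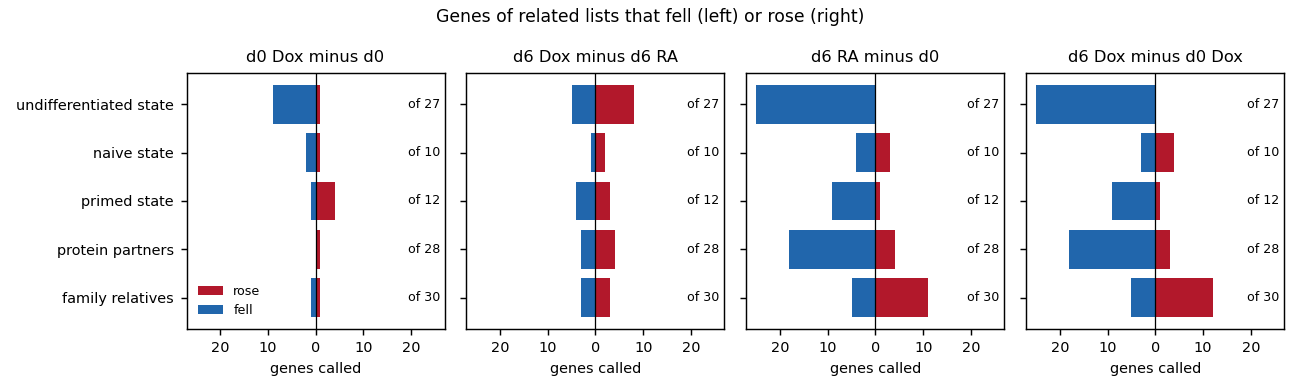
Number of genes in 5 related lists that fell (bars to the left) or rose (bars to the right) in 4 comparisons, out of the measured genes printed at the right. The undifferentiated-state list shows 25 falls of 27 in both changes from d0 to day 6.

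Several members are also used by other cell types, so markers of those cells were read beside them, against 5.81% of all probe sets called with Dox at d0, 15.5% between the day 6 groups and 38.1% in RA-labelled day 6 against d0. With SOX2 higher and not passing at d0, 5 of 10 neural markers rose and 0 fell (1 lower at an unadjusted p under 0.05), led by LHX2 (1.71) and MAP2 (1.65). The summed signal of all 10 was 13338 to 13518 in Dox-treated d0 and 12896 to 14432 in d0, with NEUROG2 under 16 in both. TUBB3, which did not pass (-0.30), made up most of both sums, with means of 8465 in Dox-treated d0 and 10460 in d0. Beside KLF4 at day 6, 8 of 10 epithelial markers rose and 1 fell in Dox-labelled against RA-labelled arrays, with sums of 79677 to 83503 in Dox-labelled and 45408 to 47701 in RA-labelled day 6, led by ESRP1 (2.66) and RAB25 (2.45) against CLDN6 (-0.65). From Dox-treated d0 to Dox-labelled day 6, 3 of these markers rose and 5 fell, where 34.9% of all probe sets were called. ESRP1 averaged 4034 in d0, 2757 in Dox-treated d0, 1174 in Dox-labelled and 178 in RA-labelled day 6, so its higher Dox-labelled level was a smaller loss. Beside the fall of KLF4 with Dox at d0, 0 epithelial markers rose (0 higher at an unadjusted p under 0.05) and 2 fell, RAB25 (-1.18) and CLDN7 (-1.02), with sums of 48041 to 50321 in Dox-treated d0 and 54812 to 59395 in d0. Of 11 trophoblast and amnion markers 5 rose and 0 fell in Dox-labelled against RA-labelled day 6 (0 lower at an unadjusted p under 0.05), with sums of 37847 to 39581 in Dox-labelled and 7059 to 8655 in RA-labelled day 6, CGA under 16 in both groups and CDX2 in the Dox-labelled one. IGFBP3 (3.47) led those rises. Its mean was 26620 in Dox-labelled and 2448 in RA-labelled day 6, so this gene made up most of the Dox-labelled sum. FOXD3 fell to day 6 while 7 of 10 neural crest markers rose and 1 fell in RA-labelled day 6 against d0 (SNAI2 at 3.70 and SOX9 at 1.67, against ETS1 at -0.36), with sums of 7855 to 8595 in RA-labelled day 6 and 5923 to 6613 in d0. For SALL4 and PRDM14, which germ cells also express, 1 of 9 germ cell markers rose at d0 with Dox, DAZL (1.65), and 0 fell (0 lower at an unadjusted p under 0.05), with sums of 4142 to 4474 in Dox-treated d0 and 3285 to 4041 in d0, and DDX4 under 16 in both. Mesoderm markers (10 measured) gave 3 rises and 1 fall between the day 6 groups and endoderm markers (8 measured) 2 rises and 1 fall, the falls being EOMES (-0.88) and CXCR4 (-0.69). The part of these cell types in the members' levels was not tested.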

How the data were processed

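The deposited table held linear probe set intensities of 12 arrays; the sources used here do not state the authors' background correction, probe summary or scaling, and the labels' protocols name TRIzol extraction and biotin labelling. Groups and replicate numbers came from the sample titles. Of 54675 probe sets, 41097 carried a single gene symbol, updated through the gene ID for 41043. Values were taken as log2(intensity + 16), a scale on which dim genes change too little, and tested on all probe sets with limma 3.58.1 (R 4.3.3, lmFit and eBayes, all 12 arrays, 8 residual degrees of freedom, Benjamini-Hochberg). The number of arrays limits the precision. Members, gene lists and tests were chosen with earlier results of these data known. Named were all members, up to 2 largest rises and falls of a list per comparison, and the 5 nearest genes of 3 core factors; for marker lists, only those set beside a member's result. Same-numbered arrays deviated together only weakly (r = -0.0156 to 0.095, median 0.0195), and numbers were not treated as pairs. Differently numbered arrays gave r = -0.102 to 0.0331, with a median of -0.0096. The procedure was tested on simulated data. Sequences came from RefSeq tables of GRCh38.p14. Alternatives were quantile normalization, median centring, pseudocounts of 1 and 64, brighter probe sets only, 1 probe set per gene, a trended robust variance, the compared arrays alone, the replicate block and leaving out each array.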

Additional observations from a re-analysis of the deposited data

Results flagged for a closer look

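The change from d0 to day 6 differed between the Dox arm and the RA arm, by the interaction test, for 7 of the 19 member probe sets (13.4% of all probe sets were called). The differences, Dox arm minus RA arm on the log2 scale, were -2.72 for PRDM14, -2.55 for NANOG, -1.36 for POU5F1B, -0.74 for the middle ZFP42 probe set, -0.73 for SOX2, -0.56 for the shared POU5F1 probe set and 1.66 for KLF4. By their labels the arms differ in agent and in their d0 group. CYP26A1 and 3 of 7 NR6A1 probe sets, those most induced by Dox at d0, go against the day 6 labels. In 3 others, the brightest included, the Dox-labelled arrays were higher than the RA-labelled ones but below untreated d0. For SOX2 only the brightest of 4 probe sets passed. The dimmer NANOG probe set (-0.53, adjusted p = 0.104) and the dimmer KLF4 probe set (1.03, adjusted p = 0.39) did not pass. Nor did the brightest and the dimmest ZFP42 probe sets (adjusted p = 0.0669 and 0.185).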

How the results depend on the processing

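With Dox at d0, members called higher numbered 1 with a pseudocount of 64, with brighter probe sets only and with 1 probe set per gene (SOX2 each time), and 2 with a trended robust variance (SOX2 and SALL4), against 0 as reported. Members called lower numbered 2 in the compared arrays alone. All probe sets called there were 5245 among brighter probe sets, 5279 with a trended robust variance and 1358 in the compared arrays alone, against 3178. With 1 probe set per gene (19776 tested) the called numbers were 5121 for Dox-labelled against RA-labelled day 6, 9994 for RA-labelled day 6 against d0 and 9121 for Dox-labelled day 6 against Dox-treated d0. They were 9586 for Dox-labelled day 6 against d0, 9544 for RA-labelled day 6 against Dox-treated d0 and 4796 for the interaction. Each was a larger share of the tested probe sets than that called over all 54675. Leaving out each array gave 3 to 5 members lower and 1872 to 2885 probe sets called with Dox at d0, and 0 to 1 members higher for Dox-labelled day 6 against Dox-treated d0. Small values of uncalled members changed sign: the interaction of SALL4 was 0.01 with median centring, that of FOXD3 0.11 with a pseudocount of 64 and that of UTF1 -0.01 with a pseudocount of 1. Over left-out arrays the interaction lay between -0.14 and 0.03 for SALL4 and between -0.09 and 0.65 for UTF1, and UTF1 between -0.71 and 0.03 for Dox-labelled against RA-labelled day 6. The causes were not tested. With the replicate block, ZFP42 with Dox at d0 (-0.64, adjusted p = 0.0563) and SOX2 between the day 6 groups (-0.38, adjusted p = 0.0512) missed the threshold and no other member's call changed. Of all values for single members under these alternatives, 1392 kept direction and side of the threshold, 35 lost the call, 18 gained one and 8 changed sign. Signals near 16 limit what can be read of PRDM14, FOXD3 and UTF1 at day 6.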
